A study of Saccharomyces cerevisiae with 6 samples.

Results

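The general stress response effector genes of budding yeast are the proteins that a stressed cell makes to protect itself: small heat shock proteins, osmolyte and desiccation proteins, enzymes of carbon reserve and redox metabolism, and a few regulators of protein and RNA turnover. A list of 43 such genes, known as targets of the transcription factors Msn2 and Msn4, was taken by gene symbol, without the genes of trehalose, glycogen, catalase and GABA metabolism. Probe sets were assigned to 42 of them, and YJL144W was not analysed here. The 42 measured genes are members of a table of 5449 S. cerevisiae genes, of which 5402 were tested. All 42 passed the filter on low signals and were above background on all 6 arrays, each with a single probe set, and their signals ran from 34.8 to 5556.

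Total RNA was measured on Affymetrix arrays from 6 cultures of strain background W303, a common laboratory strain: 3 wild-type cultures and 3 in which rph1 was deleted. Both groups grew in rich medium (YPD) at 30 °C and were harvested in log phase, and the labels name no stress treatment. The arrays of each genotype are numbered 1 to 3 and were described by the submitters as biological samples. The sources used here do not give whether arrays of equal number share a day of growth, how many deletion clones were used or which marker replaced the gene.

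Msn2 and Msn4 are zinc-finger activators that move into the nucleus when protein kinase A activity drops or the cell meets heat, salt, oxidants or starvation, and bind the stress response element in the promoters of their targets. In cells growing fast on glucose they are mostly held in the cytoplasm, and their targets are expressed at a basal level. Rph1 is a Jumonji-domain histone demethylase with zinc fingers that recognise a similar element, and PHR1, a DNA repair gene, is its best known target, which it represses. The study asked which genes Rph1 regulates in exponentially growing cells, and the values below ask how much of the effector set differed when Rph1 was missing and no stress was applied. In whole cultures, a small difference in every cell and a large one in a few cells cannot be told apart.

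The targeted gene itself was checked first. RPH1 had signals of 305, 362 and 385 in the wild type and of 4.52, 8.18 and 8.99 in the deletion, where 1 of 3 arrays was above background. The wild type was at least 35.2-fold higher, with an adjusted p of 0.00196 in limma's moderated test over 5402 genes. Array medians ran from 598.8 to 628.1 and correlations between arrays from 0.972 to 0.996 over all tested genes. The arrays did not divide by genotype alone. Both replicate 1 arrays stood apart from replicates 2 and 3, and the labels give replicate 1 a different form of sample code. The main counts and medians of the effector genes are therefore given also by replicate number.

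No effector gene passed the genotype test. At an adjusted p under 0.05, 0 of 42 differed, against 2 of 5402 genes (0.037%). At an unadjusted p under 0.05 there were 3 (GRE1, DCS1 and SDS24), all higher in the deletion, where the background over all genes was 5.33% in both directions and 4.33% for higher. The differences were small and mostly of 1 sign. The log2 difference, deletion minus wild type, was above 0 for 35 of 42 genes, against 50.4% of all tested genes. After each array was centred on its median it was above 0 for 30, and the share of all genes was not taken after centring. The median difference as deposited was 0.12 against 0.0012 over all genes. Differences ran from -0.30 for HSP12 to 0.74 for GRE1, and 16 of the 42 lay between -0.1 and 0.1. The median size of the difference, without its sign, was 0.14 for the effector genes and 0.068 for all tested genes.

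**Figure D1:**
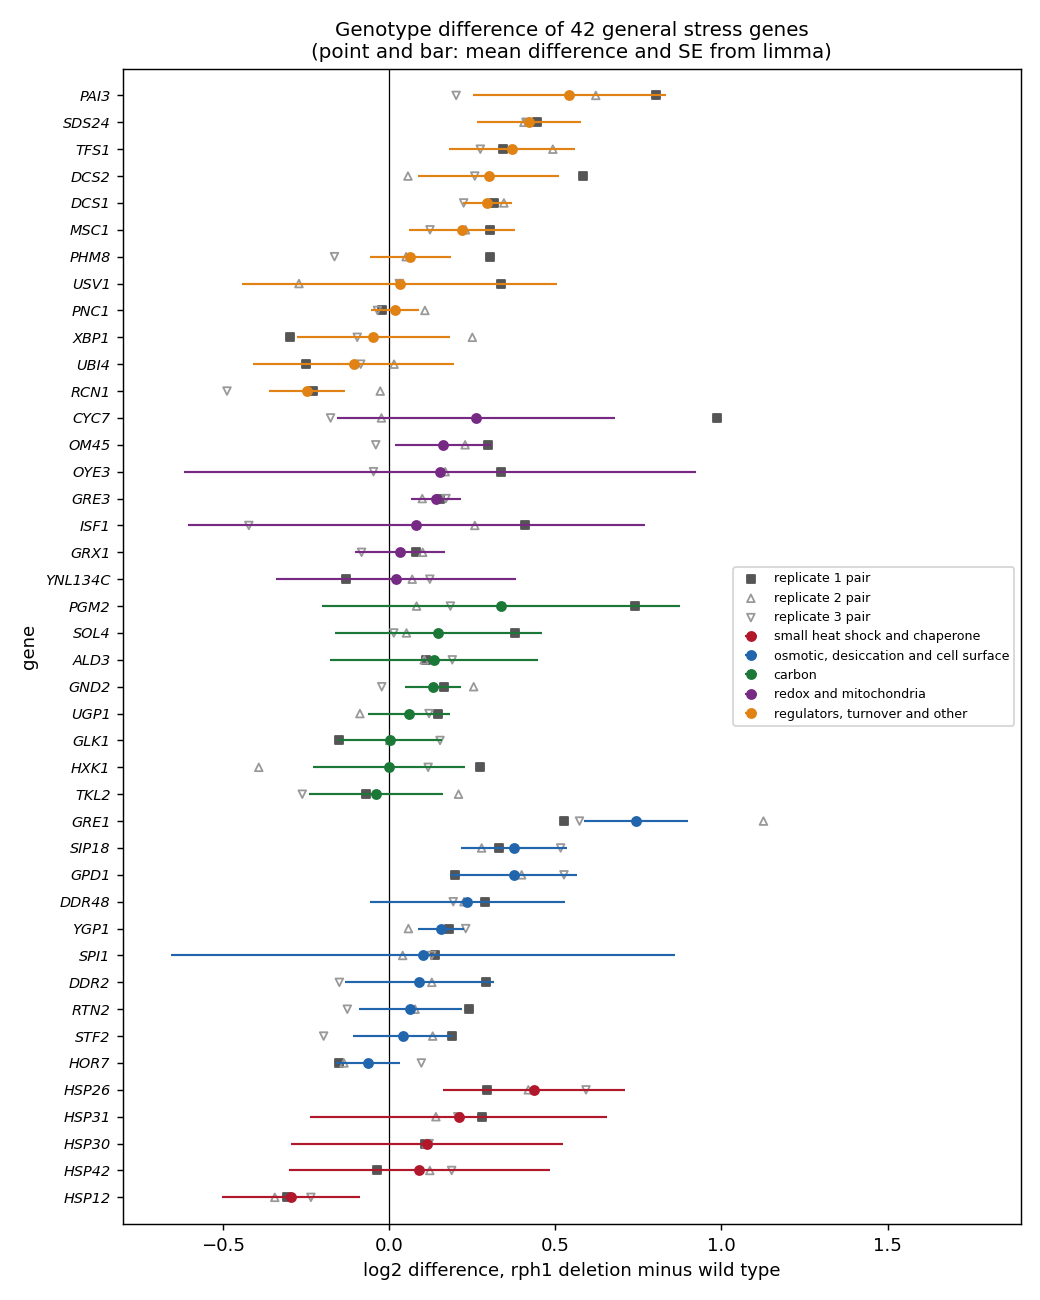
Log2 difference, rph1 deletion minus wild type, of the 42 effector genes by functional group, with bars for the standard error of the limma fit (3 arrays per genotype) and a mark for each same-numbered pair. Most points lie right of 0, from -0.30 for HSP12 to 0.74 for GRE1, and no gene passed the adjusted threshold.

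When each deletion array was set against the wild-type array of the same number, 19 of 42 effector genes were higher in the deletion in all 3 pairs, where 19.9% of all genes were. HSP12 and RCN1 were lower in all 3 pairs, where 14.7% of all genes were. Pair 1 gave 32 higher genes with a median of 0.26 (background 53.7%), pair 2 gave 35 with a median of 0.11 (52.7%), and pair 3 gave 26 with a median of 0.12 (50%). The 3 deletion arrays all lay above the 3 wild-type arrays for 5 genes, GRE1, YGP1, GRE3, DCS1 and SDS24, where 7.55% of all genes did so. No effector gene had every deletion array below the wild type, where 3.04% of all genes did. In replicates 2 and 3 alone, 29 were above 0 with a median of 0.089 (background 49.1%), and 0 passed the adjusted threshold (0.037%).

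The higher count fell most when deletion replicate 1 was left out. In that fit, with no term for replicate number, 23 of 42 genes were above 0 and the median was 0.052. It keeps wild type replicate 1, on which the effector genes also ran high, so it is not balanced for replicate number. Without either replicate 1 array, 29 of 42 were above 0, against 49.1% of all genes. The deletion replicate 1 array was the highest of the 6 for 22 of the 42 genes, while it was the highest for 1318 of all 5402. The median deviation of the effector genes from each gene's own mean was 0.26 on that array and 0.083 on wild type replicate 1. The remaining wild-type arrays had -0.21 (replicate 2) and -0.11 (replicate 3), and the remaining deletion arrays -0.073 and -0.025. Within replicate 1 and within replicates 2 and 3, the deletion was therefore the higher genotype, while the replicate 1 arrays were higher than the others in both genotypes.

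A second fit added replicate 1 against 2 and 3 as a term. In limma with that term, 1 of 42 effector genes passed the adjusted threshold, where 34 of 5402 did (0.629%). At an unadjusted p under 0.05 there were 16 in that fit, 15 of them higher, where the background was 14.6% in both directions and 10.4% for higher. With the replicate number itself as a block, 0 passed, where 0.111% of all genes did (0.0555% in each direction). In that fit 13 had an unadjusted p under 0.05 (background 13%), of which 12 were higher (9.4%) and 1, HSP12, was lower (3.57%).

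The gene that passed with the replicate term was SDS24, which with its paralog SDS23 is known for a part in cell separation. Its signals were 637, 496 and 494 in the wild type and 867, 657 and 657 in the deletion. Both genotypes were high in replicate 1, and the lowest deletion array was still above the highest wild-type array. The log2 difference was 0.42 (SE 0.16, n = 3 arrays per genotype), with an adjusted p of 0.786 in the genotype-only limma fit, 0.104 with the replicate block and 0.0400 with the replicate 1 term.

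DCS1, which encodes the scavenger enzyme that degrades the cap left after messenger RNA decay, varied little between arrays of 1 genotype. Wild-type signals were 845, 806 and 899, and deletion signals were 1052, 1024 and 1049.9. The groups did not overlap, and the 3 deletion arrays lay within a narrow range. Its log2 difference was 0.30 (SE 0.07), with an unadjusted p of 0.00616 and an adjusted p of 0.435 in the genotype-only limma fit. The adjusted p of DCS1 in limma was 0.147 with the replicate block and 0.0961 with the replicate 1 term. Its paralog DCS2 read 379, 330 and 297 in the wild type and 568, 343 and 356 in the deletion, and differed by 0.30 on the log2 scale (SE 0.21). The DCS2 groups overlapped, and most of its difference lay in pair 1.

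GRE1, a hydrophilin gene induced by osmotic stress, had the largest difference among the 42. Its signals were low, at 35.4, 34.8 and 40.8 in the wild type and 51.0, 75.9 and 60.7 in the deletion, while the 95th percentile of the fission yeast probe sets, taken as background, was at most 12.7 on any array. The groups did not overlap, and replicate 1 was the lowest of the deletion arrays. The log2 difference was 0.74 (SE 0.16), a 1.67-fold difference, with an unadjusted p of 0.00273 and an adjusted p of 0.345 in limma. With the replicate block its adjusted p in limma was 0.124, and with the replicate 1 term 0.0667.

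**Figure D2:**
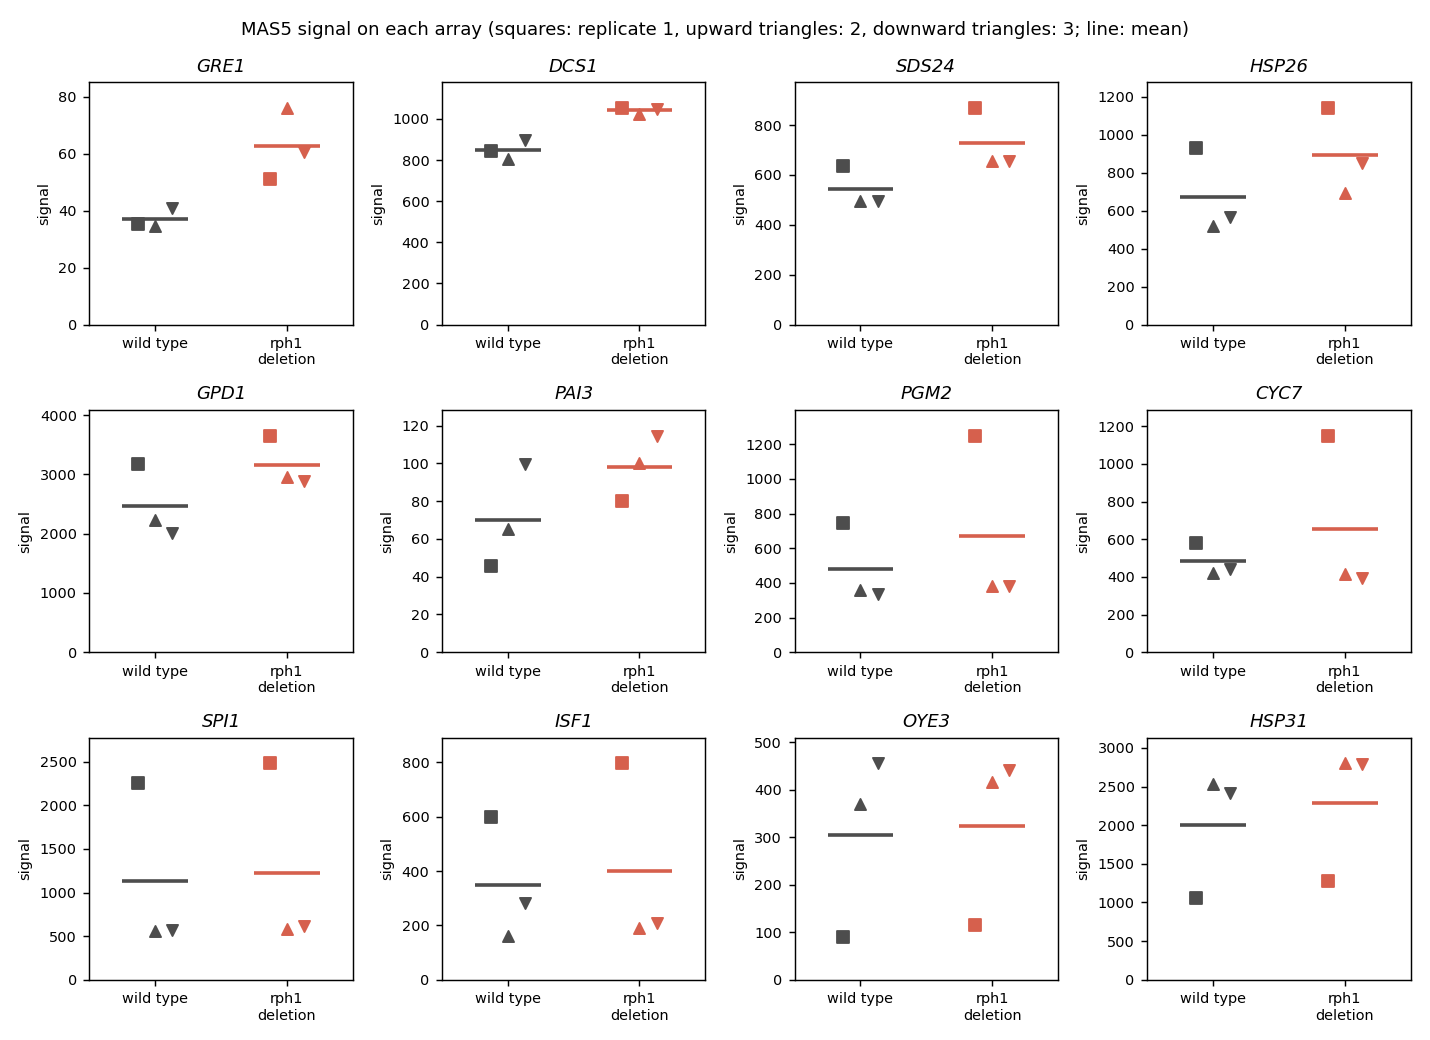
MAS5 signal, on a linear scale from 0, of 12 effector genes on each of the 6 arrays, with squares for replicate 1, triangles for replicates 2 and 3, and a line at the mean of each genotype. GRE1, DCS1 and SDS24 do not overlap between genotypes, while in SPI1, ISF1, OYE3 and HSP31 the replicate 1 arrays of both genotypes stand away from the other 4.

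The 5 small heat shock and chaperone genes held both the largest difference in the lower direction among the 42 and 3 genes higher in every pair, HSP26, HSP31 and HSP30. HSP26, a small heat shock protein that holds unfolding proteins, read 929, 517 and 565 in the wild type and 1139, 691 and 852 in the deletion. The deletion was higher in each pair, by 0.29, 0.42 and 0.59 on the log2 scale, but replicate 1 of the wild type lay above 2 deletion arrays. The overall log2 difference was 0.44 (SE 0.27), with an unadjusted p of 0.159 and an adjusted p of 1.00 in the genotype-only limma fit. The adjusted p in limma was 0.124 with the replicate block and 0.123 with the replicate 1 term.

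HSP12, a membrane-associated small heat shock protein often used as a reporter of Msn2 and Msn4 activity, went the other way. Its signals were 1516, 1767 and 2240 in the wild type and 1226, 1392 and 1903 in the deletion. The groups overlapped, and each deletion array was below the wild-type array of its number, by -0.31, -0.34 and -0.24 on the log2 scale. The log2 difference was -0.30 (SE 0.21), with an unadjusted p of 0.202 in the genotype-only limma fit. The adjusted p in limma was 0.142 with the replicate block and 0.425 with the replicate 1 term.

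The remaining genes of this group had differences below their standard errors in the genotype-only fit. HSP42, the other small heat shock chaperone, had a log2 difference of 0.09 (SE 0.39). HSP31, a DJ-1 family enzyme that detoxifies methylglyoxal, had 0.21 (SE 0.45), and HSP30, a plasma membrane protein that restrains the proton pump Pma1, had 0.11 (SE 0.41). HSP31 and HSP30 were higher in the deletion in all 3 pairs. The adjusted p of HSP31 in limma was 0.252 with the replicate block and 0.161 with the replicate 1 term, and that of HSP30 was 0.486 and 0.505. Over the 5 genes the median log2 difference was 0.11, and 4 were above 0. Replicates 2 and 3 alone also gave 4 above 0, with a median of 0.16. The median was -0.16 when deletion replicate 1 was left out and 0.46 when wild type replicate 1 was left out. In those fits only 1 genotype holds a replicate 1 array.

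Among the 10 measured osmotic, desiccation and cell surface genes, 9 had a difference above 0, with a median of 0.13, and 6 were higher in all 3 pairs. Replicates 2 and 3 alone gave 6 above 0, with a median of 0.11. GPD1, the glycerol-3-phosphate dehydrogenase that makes the osmolyte glycerol, read 3179, 2236 and 2004 in the wild type and 3648, 2948 and 2886 in the deletion. Within each pair the deletion was higher, and wild type replicate 1 lay above deletion 2 and 3. The log2 difference was 0.37 (SE 0.19), with an unadjusted p of 0.0952 in the genotype-only limma fit. The adjusted p in limma was 0.162 with the replicate block and 0.102 with the replicate 1 term.

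SIP18, the hydrophilin paralog of GRE1, had signals of 49.0, 63.9 and 60.3 in the wild type and 61.6, 77.5 and 86.3 in the deletion. The groups overlapped at deletion replicate 1, and each pair was higher in the deletion. Its log2 difference was 0.37 (SE 0.16), with an unadjusted p of 0.0545 and an adjusted p of 0.932 in the genotype-only limma fit. The adjusted p in limma was 0.133 with the replicate block and 0.0667 with the replicate 1 term. YGP1, a secreted glycoprotein made on nutrient limitation, read 4031, 4242 and 4039 in the wild type and 4564, 4417 and 4739 in the deletion. The YGP1 groups did not overlap, at a small log2 difference of 0.16 (SE 0.07) with an unadjusted p of 0.0651 in limma.

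DDR48, a DNA damage-responsive gene, had a log2 difference of 0.24 (SE 0.29) and was higher in all 3 pairs. Its adjusted p in limma was 1.00 in the genotype-only fit, 0.193 with the replicate block and 0.102 with the replicate 1 term. The other osmotic and surface genes lay between -0.06 and 0.10. SPI1, a glycosylphosphatidylinositol-anchored cell wall protein, had 0.10 (SE 0.76). DDR2, a multistress gene, had 0.09, and its paralog HOR7 had -0.06, the only value of the group below 0. STF2, a hydrophilin first described as a factor that stabilises the mitochondrial ATPase inhibitor, had 0.04, and RTN2, a reticulon of the endoplasmic reticulum, had 0.06.

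The 8 carbon genes had the smallest median log2 difference of the 5 functional groups, 0.096, with 6 above 0 and 3 higher in all 3 pairs. Over replicates 2 and 3 alone 6 were above 0, with a median of 0.056. PGM2, the major phosphoglucomutase, had the largest value. Its signals were 747, 361 and 338 in the wild type and 1248, 382 and 384 in the deletion. The groups overlapped, since the deletion was far above the wild type in replicate 1 and close to it in replicates 2 and 3. The pairs differed by 0.74, 0.08 and 0.18 on the log2 scale, and the mean by 0.34 (SE 0.54), with an unadjusted p of 0.554 in limma.

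The glucose-phosphorylating enzymes had nearly the same mean in both genotypes: the log2 difference was 0.0014 (SE 0.16) for the glucokinase GLK1 and -0.00051 (SE 0.23) for the hexokinase HXK1. UGP1, which makes UDP-glucose, had 0.06. The minor isozymes of the pentose phosphate pathway lay between -0.04 for the transketolase TKL2 and 0.15 for the 6-phosphogluconolactonase SOL4, with 0.13 for the 6-phosphogluconate dehydrogenase GND2. ALD3, a cytosolic aldehyde dehydrogenase, had 0.14.

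All 7 redox and mitochondrial genes had a difference above 0, with a median of 0.14, although GRX1 and YNL134C were below 0 after median centring (-0.0029 and -0.015). By replicate number the group was less even. Replicates 2 and 3 alone gave 5 above 0, with a median of 0.061, and pair 3 gave 2, with a median of -0.047. Only GRE3 was higher in all 3 pairs. GRE3, an aldose reductase, read 1473, 1390.2 and 1358 in the wild type and 1637, 1489.8 and 1529 in the deletion. The groups did not overlap, and the gap between them was narrow. The means differed by 0.14 on the log2 scale (SE 0.08), with an unadjusted p of 0.111 in limma.

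CYC7, the cytochrome c isoform made when oxygen or glucose is low, had the largest mean difference of the redox group and the least even one. Its signals were 580.1, 422 and 445 in the wild type and 1149, 416 and 393 in the deletion. Deletion replicate 1 stood above all other arrays, and the other 2 deletion arrays lay just below the wild type. The pair differences were 0.99, -0.02 and -0.18 on the log2 scale, and the mean 0.26 (SE 0.42). OM45, a mitochondrial outer membrane protein, had 0.16, the glutaredoxin GRX1 0.03 and the aldehyde reductase gene YNL134C 0.02. OYE3, an NADPH oxidoreductase of the old yellow enzyme family, had 0.15 (SE 0.77), and ISF1 had 0.08 (SE 0.69).

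Of the 12 regulators, turnover and other genes, 9 had a difference above 0, with a median of 0.14, and 6 were higher in all 3 pairs. Over replicates 2 and 3 alone 8 were above 0, with a median of 0.12. PAI3, a cytoplasmic inhibitor of the vacuolar proteinase A, read 45.8, 65.3 and 99.6 in the wild type and 80.0, 100.4 and 114.6 in the deletion. Both genotypes varied widely and overlapped. Its log2 difference was 0.54 (SE 0.29), with an unadjusted p of 0.108 in limma. TFS1, an inhibitor of the vacuolar carboxypeptidase Y, had signals of 842, 564 and 641 in the wild type and 1067, 793 and 776 in the deletion. Each TFS1 pair was higher in the deletion and the groups overlapped through wild type replicate 1. Its log2 difference was 0.37 (SE 0.19), with an unadjusted p of 0.0963 and an adjusted p of 1.00 in the genotype-only limma fit. The adjusted p in limma was 0.129 with the replicate block and 0.0667 with the replicate 1 term.

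RCN1, an endogenous regulator of the phosphatase calcineurin, was the other gene lower in all 3 pairs. Its wild-type signals were 689, 566 and 706, and its deletion signals were 588, 556 and 504. The groups overlapped at wild type replicate 2. The log2 difference was -0.25 (SE 0.11), with an unadjusted p of 0.0705 and an adjusted p of 0.984 in limma. The polyubiquitin gene UBI4 had -0.11, the transcriptional repressor XBP1 -0.05, the zinc-finger regulator USV1 0.03 and the nicotinamidase PNC1 0.02. The phosphatase gene PHM8 had 0.06 and MSC1 0.22.

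Replicate number separated the effector genes far more than genotype did, as it did the tested genes as a whole. In limma with genotype as the other term, 28 of 42 passed an adjusted p under 0.05 between replicate 1 and replicates 2 and 3, where 1992 of 5402 genes did (36.9%). Of these, 20 were higher in replicate 1 (background 18.4%) and 8 were lower (18.5%). A difference of over 1 on the log2 scale was found in 8 of the 42, against 2% of all genes. The median size of the replicate difference was 0.45 for the effector genes and 0.18 for all genes. It exceeded the size of the genotype difference in 35 of 42 effector genes, and in 4043 of all 5402 genes. All comparisons of replicate 1 rest on 1 array of each genotype. Fewer of the 42 passed when either replicate 1 array was left out. Replicate 1 is then a single array, and the share of all genes was not taken in those fits.

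**Figure D3:**
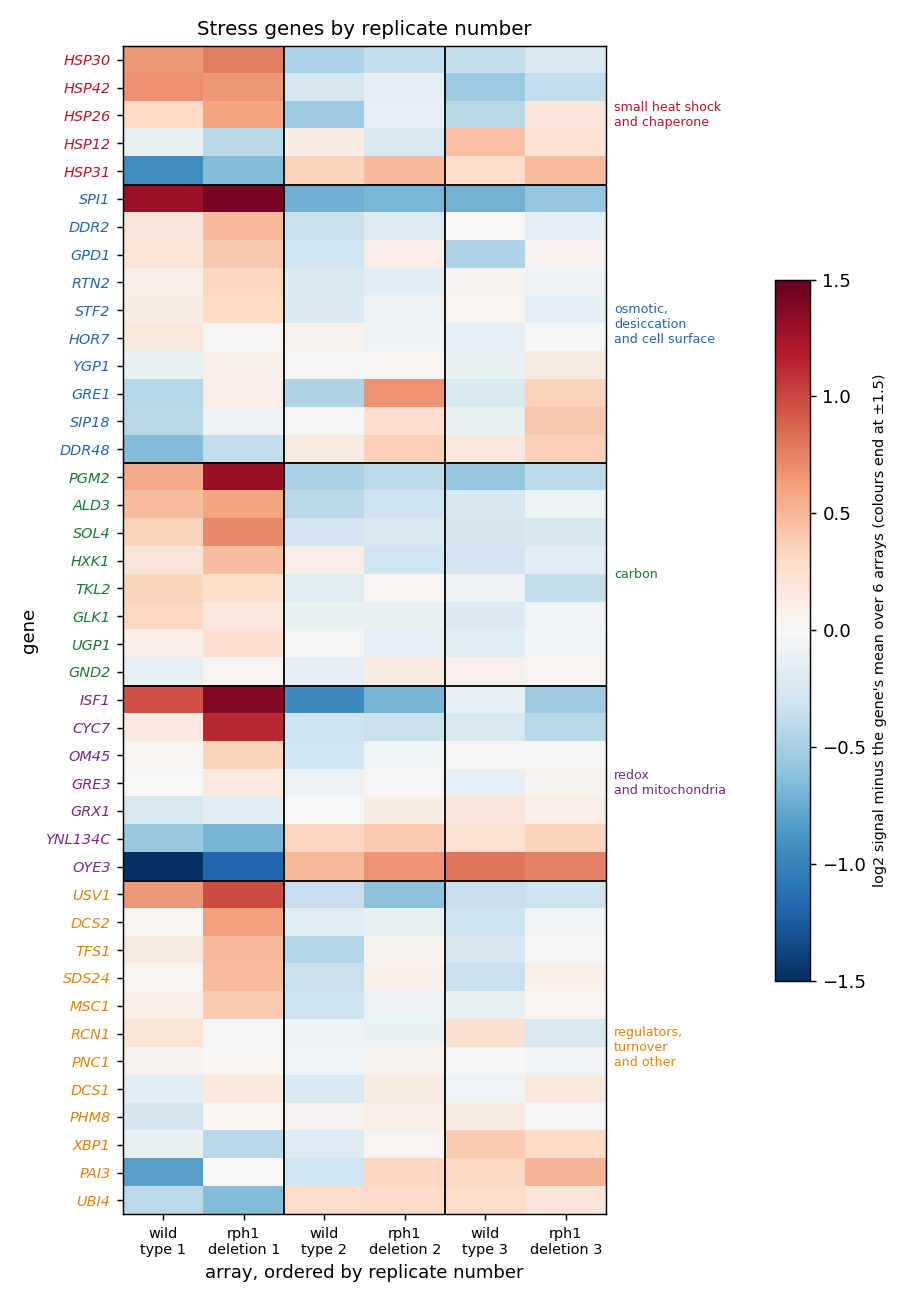
Heat map of the deviation of the log2 signal from each gene's mean over the 6 arrays, with the 42 effector genes as rows by functional group and the arrays as columns (colours end at 1.5 in either direction). Replicate 1 columns of both genotypes carry the strongest colours, high for SPI1, ISF1 and PGM2 and low for OYE3 and HSP31.

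Carbon genes differed by replicate number in 1 direction. In the limma fit 7 of the 8 passed as higher in replicate 1, where 18.4% of all genes did, and GND2, with -0.07, did not pass. PGM2 was 2.64-fold higher in replicate 1 (log2 difference 1.40, SE 0.14, adjusted p 0.00254 in limma). SOL4 was higher by 0.80 and ALD3 by 0.80 on the log2 scale, HXK1 by 0.49, TKL2 by 0.45, GLK1 by 0.36 and UGP1 by 0.26.

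The heat shock genes divided by replicate. HSP30 read 3657 and 3945 in replicate 1 of the wild type and the deletion, against 1659 to 1968 on the other 4 arrays. HSP42 read 2023 and 1973 in replicate 1, against 853 to 1136 on the others. Both were higher in replicate 1, HSP30 by 2.1-fold and HSP42 by 2.01-fold, with adjusted p of 0.00098 and 0.00328 in limma.

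HSP31 was opposite, with 1052 and 1278 in replicate 1 and 2421 to 2798 elsewhere. It was 2.27-fold lower in replicate 1, with an adjusted p of 0.000618 in limma. HSP26 was 1.6-fold higher in replicate 1 (adjusted p 0.00748 in limma). HSP12 was lower there by -0.40 on the log2 scale and did not pass, with an adjusted p of 0.082 in limma.

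The largest replicate difference of the osmotic and surface group was that of SPI1, with wild-type signals of 2254, 561 and 568 and deletion signals of 2479, 577 and 621. Both replicate 1 arrays stood apart and the other 4 lay close together. SPI1 was 4.07-fold higher in replicate 1 (adjusted p 0.000129 in limma). DDR2 and GPD1 were also higher, by 0.52 and 0.45 on the log2 scale. DDR48 and SIP18 were lower in replicate 1, by -0.77 and -0.38, although both were higher in the deletion within each pair.

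Redox genes ranged widely by replicate, from -2.04 for OYE3 to 1.74 for ISF1 on the log2 scale. OYE3 read 90.8, 371 and 456 in the wild type and 114.7, 417 and 441 in the deletion. Replicate 1 was low in both genotypes, by 4.11-fold, with an adjusted p of 0.00068 in limma. ISF1 read 599, 159 and 282 in the wild type and 796, 191 and 211 in the deletion, so that replicate 1 was high, by 3.35-fold (adjusted p 0.00551 in limma). YNL134C was lower in replicate 1 by -0.95 and GRX1 by -0.30 on the log2 scale, while CYC7 was higher by 0.96.

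Among the regulators, 7 of 12 passed by replicate number, where 36.9% of all genes did. USV1 was 2.33-fold higher in replicate 1 (adjusted p 0.00315 in limma), and DCS2, TFS1, SDS24 and MSC1 were higher by 0.49, 0.46, 0.38 and 0.35 on the log2 scale. UBI4 and PAI3 were lower by -0.79 and -0.62. DCS1, with a replicate difference of 0.01, and YGP1, with -0.02, were the most even of the 42 between replicate 1 and the rest.

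**Figure D4:**
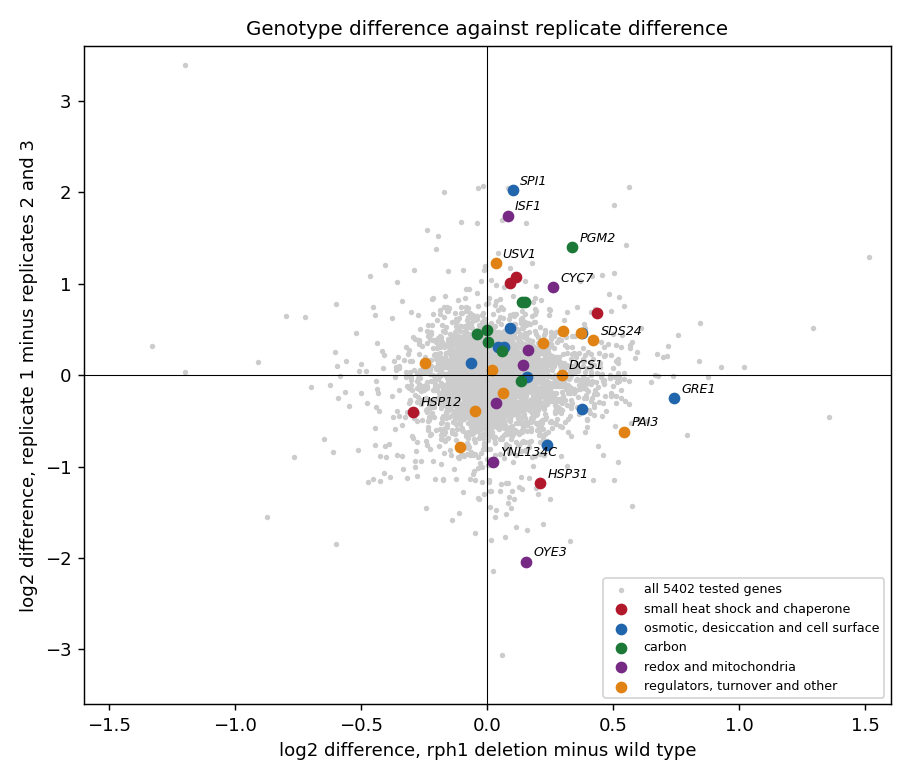
Log2 difference between genotypes (x axis, rph1 deletion minus wild type) against log2 difference between replicate 1 and replicates 2 and 3 (y axis), with all 5402 tested genes in grey and the effector genes coloured by function; 1 gene, RPH1, lies outside the axes. The effector genes spread from -2.04 (OYE3) to 2.02 (SPI1) on the y axis and from -0.30 to 0.74 on the x axis.

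Whether the genotype difference itself depended on replicate number was tested with an interaction term in limma. No effector gene passed the adjusted threshold, where 0% of all genes did, and 5 had an unadjusted p under 0.05 (CYC7, PGM2, SOL4, DCS2 and PHM8), where 6.63% of all genes did. For each of the 5 the deletion was above the wild type in replicate 1. In replicates 2 and 3 it was higher by less for PGM2, SOL4 and DCS2 (0.13, 0.03 and 0.16 on the log2 scale) and lower for CYC7 and PHM8 (-0.10 and -0.06). The term was 1.09 (SE 0.12, adjusted p 0.248 in limma) for CYC7, 0.61 (SE 0.11, adjusted p 0.551) for PGM2, 0.43 for DCS2, 0.36 for PHM8 and 0.35 for SOL4. It rests on 1 array of each genotype in replicate 1.

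The effector genes varied more between cultures of 1 genotype, at the median, than the tested genes as a whole. Their within-genotype standard deviation of log2 signal had a median of 0.30, against 0.14 over all tested genes, and 17 of 42 lay above the 90th percentile of all genes. OYE3, SPI1 and ISF1 had the widest spread, with 1.19, 1.17 and 1.06. In replicates 2 and 3 alone the medians were 0.093 and 0.072, and 8 of the 42 lay above the 90th percentile. The standard errors of the genotype fit are computed from the within-genotype spread: DCS1 and YGP1 had 0.07, while OYE3 had 0.77. A wide spread was not particular to this list. Over all arrays, 19 other effectors, described below, had a median standard deviation of 0.26, with 7 above the 90th percentile. For 10 glucose-repressed genes it was 0.48, with 7 above. Medians were lower for 24 pathway regulators (0.13), 18 paralogs (0.12) and 122 ribosomal protein genes (0.14).

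Genes that act upstream had a median near 0. Of 24 measured regulators of the Msn2 and Msn4 pathway, 0 passed the adjusted threshold, 2 had an unadjusted p under 0.05 (8.33%, against 5.33% of all genes) and the median log2 difference was 0.0083. MSN2 had 0.13 (SE 0.08) and MSN4 0.08 (SE 0.11). The smallest p belonged to TPK2, a catalytic subunit of protein kinase A, with signals of 874, 915 and 719.9 in the wild type and 1173, 1096 and 1138 in the deletion. The TPK2 groups did not overlap, at a log2 difference of 0.45 (SE 0.11), with an unadjusted p of 0.0051 and an adjusted p of 0.434 in limma. BCY1, the inhibitory subunit of the same kinase, had 0.21 (SE 0.07) and RAS2, which activates its pathway, 0.18 (SE 0.08), and neither overlapped between groups. Of the 24 regulators, 4 had every deletion array above every wild-type array (16.7%, against 7.55% of all genes). Every deletion array was below for 1 (4.17%, against 3.04%). By replicate number, 8 of the 24 passed (33.3%, against 36.9% of all genes), with 4 higher and 4 lower in replicate 1.

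The 19 other effectors of the same regulators, which the list leaves out, include the genes of trehalose, glycogen, catalase and GABA metabolism. Of these, 0 passed the genotype test and the median log2 difference was 0.060, with 12 above 0. The gene with the smallest p was UGA2, of GABA breakdown, higher by 0.70 (SE 0.11), and next was GLG2, a glycogenin, by 0.58 (SE 0.11). Both had an adjusted p of 0.0400 in limma with the replicate 1 term. By replicate number 13 of the 19 passed (68.4%, against 36.9% of all genes), 11 of them higher in replicate 1, the catalase gene CTT1 by 1.43 on the log2 scale.

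Of 18 paralogs of the effector genes that are not on the list, 0 passed the genotype test, 8 had a difference above 0 and the median was -0.0053. SPS100, the paralog of YGP1, had the smallest p of these 18 and a log2 difference of 1.52 (SE 0.79), the largest higher value among all tested genes. Its signals were near background, at 29.8, 18.4 and 3.27 in the wild type and 46.6, 32.3 and 27.9 in the deletion. The SPS100 groups overlapped, wild type replicate 3 was below background, and the adjusted p was 1.00 in limma. By replicate number 7 passed (38.9%, against 36.9% of all genes). The median size of their replicate difference was 0.19, against 0.18 for all genes and 0.45 for the effector genes. Some paralogs of effector genes with wide replicate differences had narrow ones, with no test of the contrast: CYC1 had 0.10 where CYC7 had 0.96, PGM1 had 0.20 where PGM2 had 1.40, and OYE2 had -0.28 where OYE3 had -2.04. GPD2, with 1.52, and TMA10, with 1.38, were exceptions, and these 5 paralogs were chosen after their values were seen.

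Lists that follow the growth state of a culture varied between arrays too. Over 10 glucose-repressed genes the median deviation was 0.82 on deletion replicate 3, the highest array for 8 of the 10. It lay from -0.36 to 0.026 on the remaining 5 arrays. Over 122 cytosolic ribosomal protein genes it was 0.18 on wild type replicate 1, which was the highest array for 97, and 0.079 on deletion replicate 1. By replicate number 65 of the 122 passed as higher in replicate 1 (18.4% of all genes did) and 2 as lower (18.5%). Of the glucose-repressed genes 1 passed, and it was lower. By genotype, 16 of the 122 ribosomal protein genes had a difference above 0, with a median log2 difference of -0.040. Of the 10 glucose-repressed genes 9 were above 0, against 50.4% of all genes. Their median was 0.26, with -0.32 in pair 2 and 1.02 in pair 3. None of either list passed the genotype test. The effector genes had their highest median on deletion replicate 1. The part of growth state in the differences of the effector genes was not tested.

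A run of neighbouring genes on chromosome XIII held 4 of the 42, and it was chosen after its values were seen. In RefSeq's gene order (R64) it goes ALD3, ALD2, EAR1, HOT1, DDR48, PAI3 and SIP18. ALD2, the paralog of ALD3, had a log2 difference of 0.33 (SE 0.17), and ALD3, DDR48, PAI3 and SIP18 had 0.14, 0.24, 0.54 and 0.37. These 5 genes were each higher in the deletion in all 3 pairs, as 19.9% of all genes were. EAR1 and HOT1, which lie between them, had -0.05 and -0.07. Of the 5 measured genes flanking the run, 3 had a difference above 0, and ECM5 (0.15) and MMT1 (0.15) were also higher in all 3 pairs. None of the 7 passed the adjusted threshold, and by replicate number ALD3 was higher in replicate 1 while ALD2, DDR48, PAI3 and SIP18 were lower.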

How the data were processed

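The members and the comparison lists were chosen with earlier results of these data known. Per the labels' protocols, 10 µg of total RNA per culture was labelled for an Affymetrix array. The authors deposited linear signal intensities, 1 for each probe set, and the submitters' processing notes name MAS5. The sources used here do not give its version or scaling. Signals had a 2% trimmed mean of 500.2 on all 6 arrays, so they were used as deposited and log2 was taken.

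The array carries 10928 probe sets, of which 5498 were assigned to 1 S. cerevisiae gene each through the platform annotation and the RefSeq gene table (R64). Of several probe sets for a gene, that of highest mean was used. Genes with a mean log2 signal above 3.06, the 95th percentile of 1746 fission yeast probe sets, were tested.

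Genotypes were compared with limma 3.58.1 (lmFit and eBayes) in R 4.3.3, 2-sided, with Benjamini-Hochberg adjustment over 5402 genes. Every adjusted p in the text comes from such a fit. The step was tested on simulated data. Summaries and figures used Python 3.11.15 and matplotlib 3.10.9. Deviations of same-numbered arrays from their genotype means correlated at 0.77, 0.45 and 0.41 for numbers 1, 2 and 3, so the replicate block was run. Number 2 correlated with number 3 of the other genotype at 0.47 and 0.54, so the pairing separates replicate 1 from the rest and not 2 from 3. The labels do not say that cultures were independent, so each p-value sets a difference against the spread between these arrays only. That spread includes the replicate 1 shift in the genotype-only fit. With the replicate block or the replicate 1 term it is what remains after that term. Having 3 arrays per genotype limits the precision.

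Signals on every array were given for the 10 members with the smallest p, the largest difference in each group and the 3 widest spreads, and for further members chosen after their values were seen. The replicate 1 and interaction fits were added with earlier results known. Alternatives were the replicate block, the replicate 1 term, subsets of arrays, 2 other normalizations, an offset, 2 filters, an intensity trend, array weights, another probe set rule and an unmoderated test. A search of promoters for the stress response element was not run.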

Additional observations from a re-analysis of the deposited data

How the results depend on the processing

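The number of genes called over all genes was 2, and it was 202 with array weights, 34 with the replicate 1 term, 6 with the replicate block, 1 with an intensity trend, an offset of 32, quantile normalization or the stricter filter, 0 with the unmoderated test, and 1 to 2 when an array was left out. The array weights, estimated without reaching convergence, ran from 0.213 (deletion replicate 1) to 4.28 (wild type replicate 2). With them 3 effector genes were called, GRE1, DCS1 and SDS24, with adjusted p of 0.0131, 0.0179 and 0.0328 in limma. With the replicate 1 term 1 was called, and 0 in each other fit that had a test. The number with an unadjusted p under 0.05 was 3 (5.33% of all genes), 16 with the replicate 1 term (14.6%) and 13 with the replicate block (13%). It was 13 with array weights, 9 in replicates 2 and 3 alone, 5 after quantile normalization and 3 to 6 when an array was left out. For these last fits the share of all genes at that threshold was not taken. The number above 0 was 35, 30 after median centring and 23 to 34 when an array was left out, lowest without deletion replicate 1. Leaving out an array moved the median of all effector genes between 0.052 and 0.19, of the heat shock genes between -0.16 and 0.46, of the osmotic genes between 0.038 and 0.20, of the carbon genes between -0.15 and 0.14, of the redox genes between 0.10 and 0.17, and of the regulators between 0.11 and 0.31. The regulators' median was 0.31 in the replicate 1 pair. The replicate 1 calls were 28, fewer when a replicate 1 array was left out, and at most 29 when another array was left out. The share of all genes was not taken in these subsets. The interaction could not be fitted without a replicate 1 array. The promoter window alternative was not run.

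The sign of 26 of the 42 genes turned under at least 1 alternative, and their reported log2 differences were at most 0.34 in size. The other 16 did not turn. Leaving out 1 array gave ranges of -0.21 to 0.46 for HSP42, -0.20 to 0.59 for HSP31, -0.24 to 0.47 for HSP30, -0.14 to 0.0041 for HOR7, -0.13 to 0.22 for DDR2, -0.033 to 0.48 for DDR48, -0.097 to 0.13 for STF2, -0.082 to 0.16 for RTN2, -0.58 to 0.77 for SPI1, -0.23 to 0.70 for PGM2, -0.11 to 0.16 for GLK1, -0.23 to 0.15 for HXK1, -0.048 to 0.13 for UGP1, -0.18 to 0.13 for TKL2, -0.17 to 0.36 for SOL4, -0.13 to 0.41 for ALD3, -0.080 to 0.13 for GRX1, -0.57 to 0.79 for OYE3, -0.24 to 0.53 for CYC7, -0.26 to 0.37 for YNL134C, -0.58 to 0.58 for ISF1, -0.21 to 0.15 for XBP1, -0.45 to 0.36 for USV1, -0.0051 to 0.049 for PNC1, -0.060 to 0.15 for PHM8 and -0.33 to 0.19 for UBI4. In these fits 1 genotype holds fewer arrays of replicate 1, or of 2 and 3, than the other. Array weights turned UGP1 (-0.035), TKL2 (0.042), CYC7 (-0.027), XBP1 (0.25) and USV1 (-0.15). Median centring turned GLK1 (-0.035), GRX1 (-0.0029), YNL134C (-0.015), USV1 (-0.0035) and PNC1 (-0.018), and quantile normalization HXK1 (0.011) and USV1 (-0.021). The replicate 1 pair turned HSP42 (-0.036), GLK1 (-0.15), HXK1 (0.27), YNL134C (-0.13) and PNC1 (-0.020). Replicates 2 and 3 alone turned DDR2 (-0.011), STF2 (-0.033), RTN2 (-0.024), CYC7 (-0.10), ISF1 (-0.082), XBP1 (0.077), USV1 (-0.12) and PHM8 (-0.056). The replicate block changed no call among the effector genes. RPH1 was not called with the unmoderated test, whose adjusted p was 0.175. The causes were not tested.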
